A study of Mus musculus with 75 samples.

Results

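The genes of 6 hypothalamic neuropeptides, oxytocin (Oxt), vasopressin (Avp), thyrotropin-releasing hormone (Trh), corticotropin-releasing hormone (Crh), somatostatin (Sst) and hypocretin or orexin (Hcrt), were followed through tables of H3K27ac and open chromatin in sorted nuclei of the mouse hypothalamus. Members were all deposited regions that overlapped 5 windows of build mm9. Regions were taken by position and not by signal, but the windows were chosen with earlier results of these data known. The windows were chr2:130385000-130420000 for Oxt and Avp together, chr6:92170000-92215000 for Trh, chr3:19570000-19620000 for Crh, chr16:23870000-23910000 for Sst and chr11:100610000-100630000 for Hcrt. They held 32 regions out of 175002, of which 24 came from the 126368 H3K27ac regions and 8 from the 48634 ATAC regions. The files pair no region with a gene, so a region is placed here in a window and not in an exon, intron or promoter, and the Oxt and Avp regions were not separated.

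Neuropeptides are cut from larger precursor proteins and released from neurons as hormones or local signals. Oxytocin and vasopressin are made by magnocellular neurons that send axons to the posterior pituitary, whereas thyrotropin-releasing hormone, corticotropin-releasing hormone and somatostatin reach the anterior pituitary through the portal vessels and raise or lower its secretion of thyrotropin, corticotropin and growth hormone. Hypocretin neurons of the lateral hypothalamus sustain wakefulness. H3K27ac marks histones at promoters and enhancers in use, and ATAC-seq detects chromatin open to a transposase.

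The mice were LepRcre/+; SUN1-sfGFP/+ in every group. Cre was driven from the leptin receptor locus and turned on a GFP tag of the nuclear envelope, so GFP-positive nuclei come from cells in which that locus has been active and GFP-negative nuclei are a mixture of the other hypothalamic cells. Treatments were free feeding for 36 h (Fed), a 36 h fast with saline at 12, 24 and 34 h (Fast), the fast with leptin at 5 mg/kg at 34 h (Lep2) and the fast with leptin at 5 mg/kg at 12, 24 and 34 h (Lep24). The library titles code these treatments as FedSSS, FasSSS, FasSSL and FasLLL. If S stands for saline, Fed mice and the earlier injections of Lep2 also received saline. Leptin, secreted by fat, reports energy stores to the brain. Each of the 4 treatments and 2 sorts had 2 libraries per assay, made from pooled hypothalami, which gave 16 H3K27ac and 16 ATAC libraries. The labels used here do not say that replicates came from separate animals, and the p-values therefore reflect library-to-library spread alone, which may be technical. The sort was not checked against the leptin receptor gene, and the RNA samples were not analysed here.

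Values were the authors' normalized signal, and absolute read depth was unknown. Summed signal per library was 9247619 to 10963342 for H3K27ac and 1232939 to 1415507 for ATAC. These sums follow normalization and do not show that depth was equal. Distinct values below 20 ran from 12 (Lep24 GFP-negative replicate 2) to 63 (Fed GFP-positive replicate 1) in H3K27ac. In ATAC they ran from 9 (Fast GFP-positive replicate 2) to 40 (Lep2 GFP-negative replicate 1). Libraries thus differed in how finely low signal was resolved, and the main fit weighted them equally. In H3K27ac, 6 libraries, the replicate 1 libraries of both sorts in Fed, Lep2 and Lep24, stood apart with 0.0750 to 0.238% of signal in mitochondrial regions, against 0.0102 to 0.0384% in the other 10. These libraries are called the high-mitochondrial set below, and no Fast library is among them, so each H3K27ac comparison with Fast is partly a comparison with this set.

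Promoter sequences of the peptide genes were searched for exact matches to 3 motifs. RefSeq sequences (build GRCm38.p6) were at hand for 5 of the 6 genes, all but Crh. The last 100 bases before each transcription start are printed 5′ to 3′ on the gene's own strand, and capitals mark a match to 1 of 3 motifs.
Oxt: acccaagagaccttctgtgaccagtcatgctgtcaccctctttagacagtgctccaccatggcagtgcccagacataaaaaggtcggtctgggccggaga
Avp: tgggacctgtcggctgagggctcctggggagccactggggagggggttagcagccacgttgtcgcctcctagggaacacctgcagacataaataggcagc
Trh: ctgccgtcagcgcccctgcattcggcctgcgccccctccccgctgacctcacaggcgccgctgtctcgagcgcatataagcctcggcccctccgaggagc
Sst: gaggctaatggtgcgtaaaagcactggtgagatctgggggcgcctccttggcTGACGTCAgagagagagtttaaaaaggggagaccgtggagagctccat
Hcrt: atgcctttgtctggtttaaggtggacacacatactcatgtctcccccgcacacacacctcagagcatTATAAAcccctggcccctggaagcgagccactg
Oxt lay on the plus strand and Avp on the minus strand, and each was the other's neighbour among protein-coding genes, with Mrps26 before Oxt and Ubox5 after Avp. The Sst promoter held the cyclic AMP response element TGACGTCA (either strand), which began 48 bases before the start. This element, the classic binding site of CREB, was found in 1.79% of 32851 promoters of 300 bases. Hcrt held the TATA box TATAAA (gene strand) from 33 bases before its start, a match found in 8.32% of promoters. The STAT site TTCNNNGAA (either strand), to which leptin-activated STAT3 can bind, was found in 8.30% of promoters and in none of these 5. Oxt, Avp and Trh matched none of the 3 motifs in their 300 bases. A match or its absence concerns these letters only.

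Each window held acetylated and open chromatin. The Oxt-Avp window had 9 H3K27ac and 2 ATAC regions, Hcrt 4 and 3, Trh 4 and 1, Crh 2 and 1, and Sst 5 and 1. All 8 ATAC regions overlapped an H3K27ac region by at least 1 bp, compared with 83.1% of all ATAC regions. Of the 24 H3K27ac regions, 8 (33.3%) overlapped an ATAC region, compared with 24.2% of all. H3K27ac regions covered 28.4 kb in the Oxt-Avp window, 24.8 kb at Hcrt, where they ran past the window's ends, 10.5 kb at Sst, 8.56 kb at Trh and 2.41 kb at Crh.

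**Figure D1:**
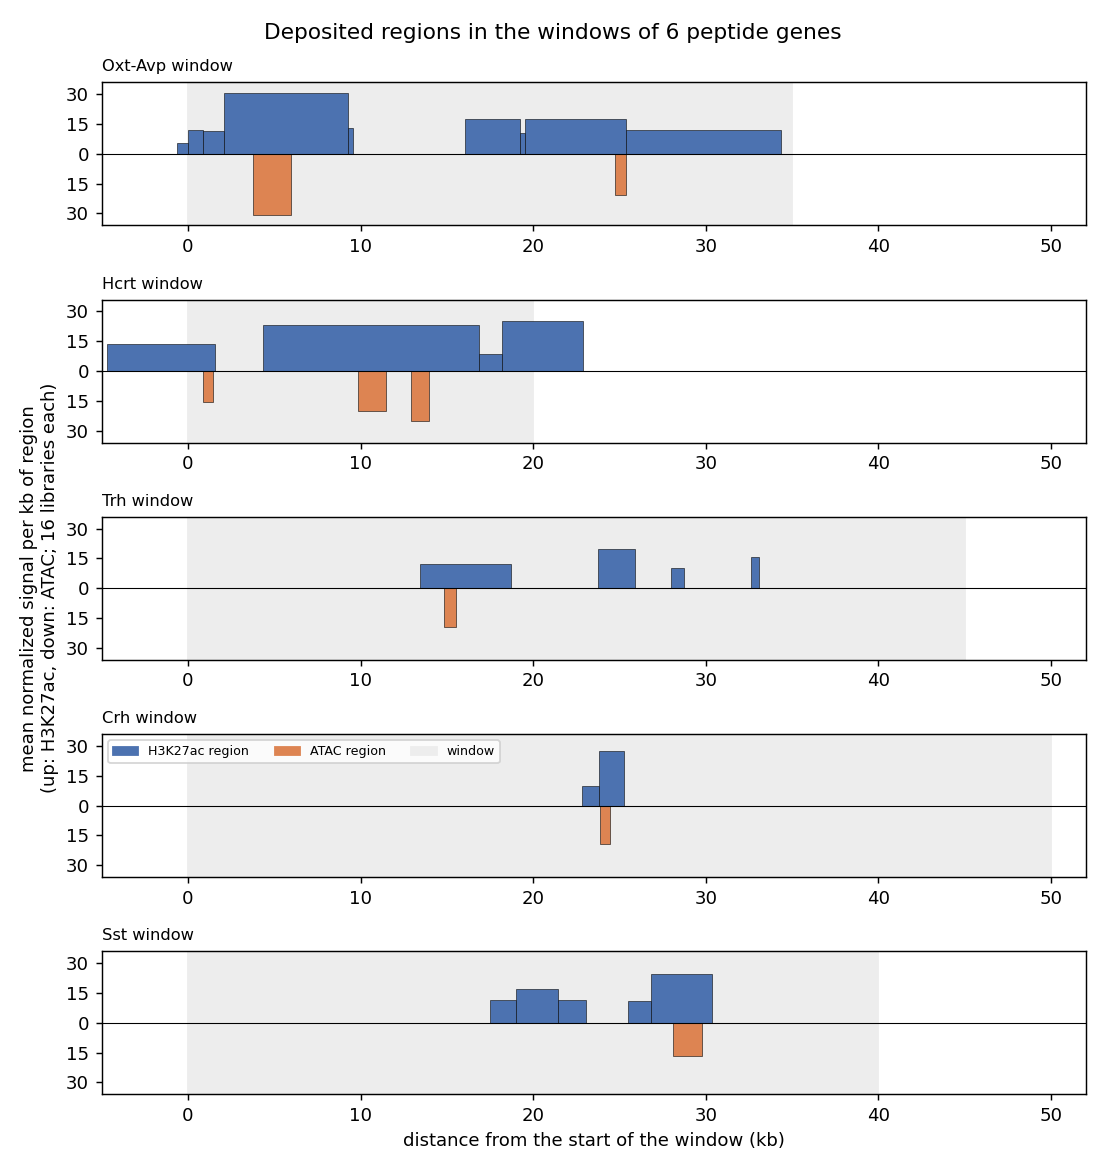
The 32 regions by distance from the start of their window in kb (x axis, grey marks the window), with bar width giving region length and bar height the mean normalized signal per kb over 16 libraries (H3K27ac up, ATAC down). Each ATAC region lies within or across H3K27ac regions, and the Crh regions occupy 2.41 kb near the middle of a 50 kb window.

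Per kb, the H3K27ac regions of the windows spanned nearly the whole range of the table, from the 0.0783rd to the 92.9th percentile of signal per kb. The densest region of each window, chosen as its highest, was chr2:130387094-130394260 at Oxt-Avp (30.6 per kb), chr3:19593803-19595264 at Crh (27.5), chr11:100628174-100632873 at Hcrt (25.4), chr16:23896840-23900382 at Sst (24.5) and chr6:92193736-92195870 at Trh (19.9). The densest ATAC regions were chr2:130388768-130390943 at Oxt-Avp, with 31.0 per kb (86.4th percentile), and chr11:100622940-100623973 at Hcrt, with 25.0 (76.4th). The only ATAC regions of Crh, Trh and Sst had 19.4, 19.4 and 16.6 per kb, at the 52.1st, 51.7th and 33.1st percentile.

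Summed over a window and divided by the covered length, H3K27ac was 20.5 ± 7.16 per kb at Crh, 20.5 ± 1.83 at Hcrt, 18.3 ± 1.54 at Oxt-Avp, 17.0 ± 2.70 at Sst and 14.2 ± 1.84 at Trh (mean ± SD, n = 16 libraries). In this order Crh and Hcrt lay within 1 SD of each other, as did Oxt-Avp and Sst, whereas Hcrt exceeded Oxt-Avp and Sst exceeded Trh by more than the SD. For ATAC the order was Oxt-Avp (28.6 ± 4.43), Hcrt (20.9 ± 4.17), Crh (19.4 ± 8.04), Trh (19.4 ± 6.15) and Sst (16.6 ± 3.81), and only Oxt-Avp exceeded its neighbour by more than the SD. Most of the Oxt-Avp signal came from chr2:130388768-130390943, with a mean of 67.4 against 13.5 in the window's other ATAC region. The gene to which that region belongs was not determined. Crh varied most between libraries in both assays. Its H3K27ac level followed the high-mitochondrial set: the window sum was 38.3 ± 6.98 in the 3 GFP-positive libraries of the set and 67.5 ± 12.3 in the other 5, and 29.9 ± 12.9 and 49.8 ± 8.38 in the GFP-negative libraries.

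The sorts were compared to ask whether chromatin in these windows differs between cells that have used the leptin receptor locus and the rest of the hypothalamus. In GFP-positive nuclei 1 ATAC region, in the Oxt-Avp window, was more open, and no H3K27ac region passed the test. With limma on log2(signal + 1) and Benjamini-Hochberg adjustment over the whole table at 0.05, 1 of 8 ATAC regions (12.5%) was called, close to the 9.8% called among all 43767 ATAC regions tested. For H3K27ac, 0 of 21 tested regions were called, below the 9.22% of all 113725. This fit has no term for the high-mitochondrial set. With that term 26.6% of all H3K27ac regions were called, and in the libraries outside the set 32.4%. A Crh and a Sst region were called in both of those fits, and a Trh and a Hcrt region outside the set only. At an unadjusted p under 0.05 there were 3 of 8 ATAC regions (37.5%, all regions 25.2%) and 3 of 21 H3K27ac regions (14.3%, all regions 24.3%). Leaving out 1 library gave 1 to 2 called ATAC regions and 0 to 1 called H3K27ac regions, and the libraries concerned are named below with the Trh, Hcrt, Crh and Sst regions. The remaining 3 H3K27ac regions, all in the Oxt-Avp window and 240 to 645 bp long, had too little signal to be tested. The median log2 fold change of the windows' regions was 0.28 for ATAC (−0.01 over all) and 0.03 for H3K27ac (0.03 over all). In none of the 29 tested regions were the 8 libraries of one sort wholly above the 8 of the other, while 1.60% of all ATAC and 2.32% of all H3K27ac regions tested had such sorts.

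**Figure D2:**
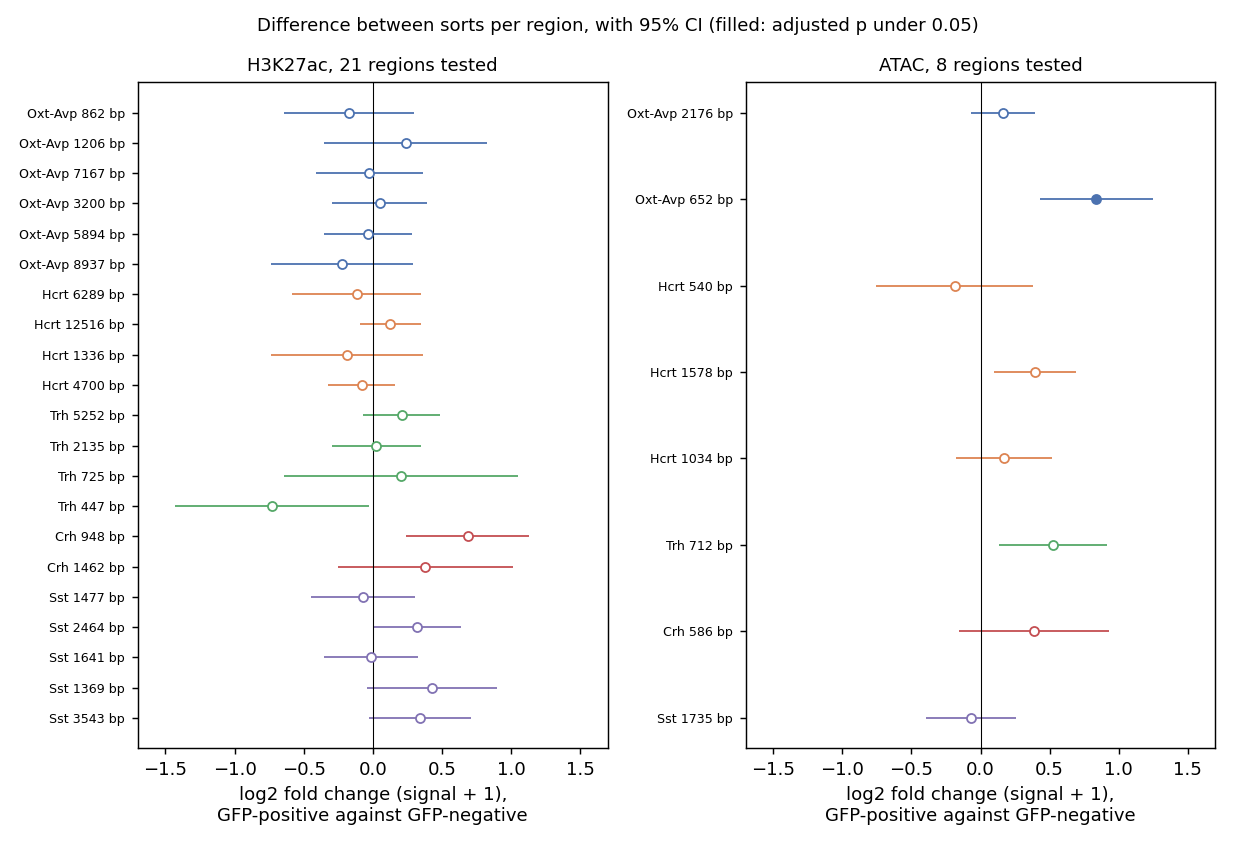
Log2 fold change of signal + 1 between GFP-positive and GFP-negative nuclei (x axis) for the 21 H3K27ac and 8 ATAC regions tested, each row a region named by its window and length, with 95% confidence intervals from limma over 16 libraries. The filled point, the 652 bp ATAC region of the Oxt-Avp window at 0.84, is the only one with an adjusted p under 0.05.

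The Oxt and Avp genes share the first window. The called region, chr2:130409746-130410397, is 652 bp long and spans the border of the H3K27ac regions chr2:130404501-130410394 and chr2:130410395-130419331. Its ATAC signal in Fed libraries was 19.9 and 12.5 in the GFP-positive and 12.5 and 14.3 in the GFP-negative nuclei. In Fast libraries it was 15.5 and 21.9 against 6.3 and 11.9, in Lep2 libraries 13.8 and 20.4 against 6.5 and 6.2, and in Lep24 libraries 17.8 and 17.1 against 7.5 and 11.3. The sorts overlapped in Fed and did not overlap in the other 3 treatments, where there were 2 libraries per group. Over all treatments the mean was 17.4 ± 3.30 against 9.56 ± 3.28 (SD, n = 8 libraries per sort). On the scale of signal + 1 the fitted difference was 1.79-fold (log2 0.84, SE 0.20, limma adjusted p = 0.0090). The GFP-positive library was higher in 7 of 8 comparisons at the same treatment and replicate number. Replicate numbers do not pair libraries by the labels, so such counts, here and below, are descriptions without a test. The share of all regions with such counts, or with sorts apart within 1 treatment, was not computed. Separation of 2 libraries from 2 others is likewise a description without a test, here and below. In bulk nuclei, a larger share of nuclei open at a region and more open chromatin per nucleus cannot be told apart. Without any 1 library the log2 difference was 0.74 to 0.94 and stayed called, and with replicate 2 alone it was 0.69 (adjusted p = 0.199). The authors' deposited table gives this region a log2 fold change of 0.66 and an FDR of 0.572 between sorts, in a comparison listed beside leptin-by-sort terms, so it need not average the same groups as the contrast over 4 treatments.

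The acetylated regions beside it were not called. The H3K27ac region chr2:130404501-130410394 had 102 ± 24.7 in the GFP-positive and 103 ± 18.2 in the GFP-negative libraries (log2 −0.03, 95% confidence interval −0.35 to 0.28). The adjoining chr2:130410395-130419331 had 98.0 ± 35.1 against 116 ± 46.4 (log2 −0.22, SE 0.24, limma adjusted p = 0.630). That region was higher in the high-mitochondrial set, where it ran from 121.5 to 182.8, than in the other libraries, where it ran from 63.2 to 110.4.

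The densest part of the Oxt-Avp window was not called between the sorts. Mrps26 and Ubox5 are the protein-coding neighbours of Oxt and Avp, and which of these genes this part covers was not determined. The H3K27ac region chr2:130387094-130394260 ran from 119.6 to 261.7 (median 242.8) in the GFP-positive and from 157.5 to 270.8 (median 227.6) in the GFP-negative libraries. These ranges overlapped almost wholly (log2 −0.03, SE 0.18, adjusted p = 0.952). The ATAC region inside it, chr2:130388768-130390943, ran from 53.9 to 90.4 and from 57.4 to 70.7 (log2 0.16, SE 0.11, adjusted p = 0.389). The highest value of this region was in Fed GFP-positive replicate 2 and the lowest in Lep24 GFP-positive replicate 1.

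The window of corticotropin-releasing hormone, which starts the hormonal stress response, held the H3K27ac region nearest to the threshold. This region was low in signal, at the 20.2nd percentile of mean signal and the 7.79th percentile of signal per kb. At chr3:19592855-19593802 the Fed libraries had 7.5 and 10.9 in the GFP-positive and 7.4 and 5.9 in the GFP-negative nuclei, and the Fast libraries 10.9 and 15.5 against 5.8 and 3.3. Lep2 libraries had 7.8 and 14.6 against 6.1 and 8.0, and Lep24 libraries 11.7 and 14.3 against 9.5 and 9.4. The GFP-positive library was the higher in 8 of 8 comparisons at the same treatment and replicate number, although the sorts as a whole overlapped. The mean was 11.7 ± 3.02 against 6.92 ± 2.08 (log2 0.69, SE 0.21, limma adjusted p = 0.054). In the 10 libraries outside the high-mitochondrial set the log2 difference was 0.98 (adjusted p = 0.0095, a fit that called 32.4% of all regions), and in the 6 libraries of the set it was 0.20 (adjusted p = 0.880). With the set as a term the region was called as well (adjusted p = 0.0277, with 26.6% of all regions called), and likewise without Lep2 GFP-positive replicate 1 (log2 0.79, adjusted p = 0.0270).

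The main Crh region, chr3:19593803-19595264, directly adjoins it and carried more signal. It ran from 24.6 to 66.5 (median 41.0) in the GFP-positive and from 9.9 to 52.3 (median 37.4) in the GFP-negative libraries, with a log2 difference of 0.38 (SE 0.29, adjusted p = 0.473). Leaving out 1 library moved this to between 0.17, without Fed GFP-negative replicate 1, and 0.60, without Fed GFP-negative replicate 2. The authors' deposited table gives this region a log2 fold change of 0.61 with an FDR of 0.106 in the same comparison beside leptin-by-sort terms, the lowest of the 15 H3K27ac regions in the windows that have an FDR there. The neighbouring region above has a log2 fold change of 0.78 and no FDR in that table. Open chromatin lay inside it at chr3:19593848-19594433. ATAC signal there was 16.1 and 16.7 against 7.3 and 2.5 in Fed libraries, where the sorts were apart. In Lep2 libraries it was 10.4 and 9.9 against 12.8 and 12.1, apart the other way. Each group had 2 libraries, and the share of all regions with such separation was not computed. Over all treatments the log2 difference was 0.39 (SE 0.26, limma adjusted p = 0.384), and 0.19 to 0.58 when 1 library was left out. The change from Fed to Fast differed between sorts by −1.38 on the log2 scale (SE 0.75), with an adjusted p of 1.00 and a range of −2.15 to −0.60 when 1 library was left out, both ends from a Fast GFP-negative library.

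The window of thyrotropin-releasing hormone, which drives the thyroid axis, held a single ATAC region, chr6:92184842-92185553. It ran from 10.7 to 23.7 (median 15.8) in the GFP-positive and from 6.1 to 13.2 (median 11.7) in the GFP-negative libraries. With 2 libraries per group, the sorts were apart in Fed, Lep2 and Lep24. They overlapped in Fast, where the values were 14.3 and 10.7 against 11.6 and 11.9. The share of all regions with such separation was not computed. The fitted difference of 1.44-fold in signal + 1 (log2 0.52, SE 0.19) had an adjusted p of 0.080, and without Fed GFP-negative replicate 1 it was called (log2 0.64, adjusted p = 0.0442). The H3K27ac region around it, chr6:92183451-92188702, had 68.9 ± 4.74 against 59.9 ± 9.34 (log2 0.21, SE 0.13, adjusted p = 0.349). Outside the high-mitochondrial set the log2 difference there was 0.36, with an adjusted p of 0.0150. The window's summed H3K27ac in those 10 libraries was 127 ± 1.49 in the GFP-positive and 106 ± 14.0 in the GFP-negative nuclei, whereas in the 6 libraries of the set it was 119 ± 15.9 against 139 ± 5.63, with the sorts in the opposite order. The densest Trh region, chr6:92193736-92195870, had 42.8 ± 5.90 and 42.4 ± 8.32 (log2 0.03). The short region chr6:92202616-92203062 had the smallest H3K27ac p of the window and the opposite direction, from 0 to 12.6 (median 4.95) against 3.3 to 12.8 (median 10.7). The GFP-positive library was lower in 7 of 8 comparisons at the same treatment and number (log2 −0.73, SE 0.33, adjusted p = 0.188), and the log2 difference was −0.46 without Fast GFP-positive replicate 2, which is listed at 0.

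The window of somatostatin, the inhibitor of growth hormone release, had no region called, although the median H3K27ac signal at its densest region was higher in GFP-positive nuclei. At chr16:23896840-23900382 the signal ran from 72.5 to 116.7 (median 101.0) in the GFP-positive and from 42.7 to 97.8 (median 80.2) in the GFP-negative nuclei, and was higher in the GFP-positive library in 8 of 8 comparisons at the same treatment and replicate number. The ranges overlapped, and the log2 difference of 0.34 (SE 0.17) had an adjusted p of 0.238. With the high-mitochondrial set as a term the adjusted p was 0.0171, and outside the set the log2 difference was 0.30 with an adjusted p of 0.0196. A second stretch, chr16:23888981-23891444, had 45.8 ± 7.44 against 36.8 ± 7.83 (log2 0.32, SE 0.15, adjusted p = 0.199) and was called without Fed GFP-negative replicate 2 (log2 0.44, adjusted p = 0.0498). The only ATAC region, chr16:23898072-23899806, lies inside the first and ran from 16.7 to 42.0 in the GFP-positive and from 22.5 to 37.6 in the GFP-negative libraries (log2 −0.07, 95% confidence interval −0.40 to 0.26).

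**Figure D3:**
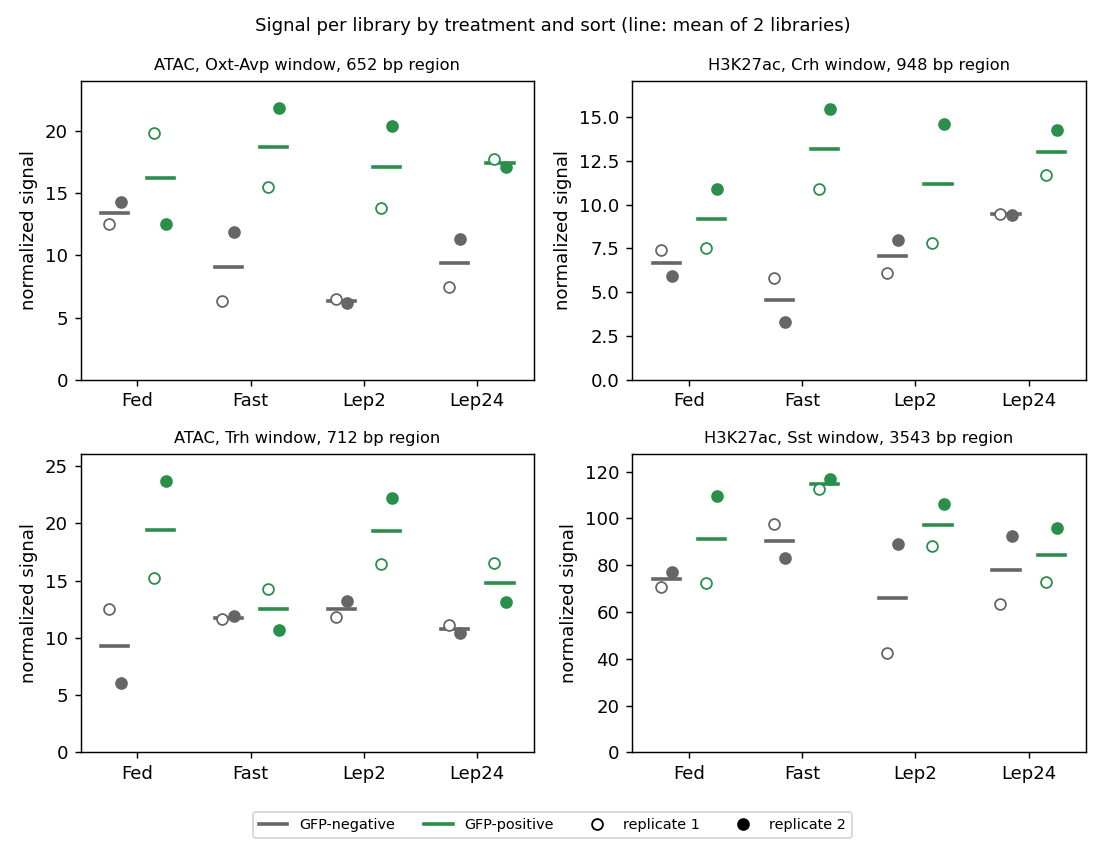
Normalized signal (y axis, from 0) of 4 regions in every library by treatment (x axis) and sort, with open points for replicate 1, filled points for replicate 2 and lines at the mean of 2 libraries. The ATAC region of the Oxt-Avp window is the only one of the 4 called between sorts over all treatments, and its sorts overlap in Fed.

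The window of Hcrt, the gene of the wakefulness peptide, held the longest acetylated stretch of the 5 windows. Kcnh4 and Ghdc are the protein-coding neighbours of Hcrt, and which of these genes the stretch covers was not determined. The 12516 bp H3K27ac region chr11:100614322-100626837 ran from 281.5 to 327.2 in the GFP-positive and from 244.8 to 339.1 in the GFP-negative libraries, with the highest value in Fed GFP-negative replicate 1. The log2 difference was 0.13 (SE 0.10, adjusted p = 0.489) over all libraries and 0.20 (adjusted p = 0.0184) outside the high-mitochondrial set. The densest region, chr11:100628174-100632873, had 116 ± 10.1 against 123 ± 16.1 (log2 −0.08, SE 0.11). Inside the long stretch, the ATAC region chr11:100619873-100621450 had 36.0 ± 7.67 against 26.9 ± 4.18, with the GFP-positive library higher in 7 of 8 comparisons at the same treatment and number. Its highest value, 52.1, came from Lep2 GFP-positive replicate 2, and the Fast libraries overlapped at 29.1 and 41.5 against 35.5 and 21.7. The difference (log2 0.39, SE 0.14) had an adjusted p of 0.083. It was called without Lep2 GFP-positive replicate 1 (log2 0.49, adjusted p = 0.0302) and without Fast GFP-positive replicate 1 (log2 0.46, adjusted p = 0.0410). The denser ATAC region chr11:100622940-100623973 had 27.5 ± 7.48 against 24.2 ± 5.84 (log2 0.17, SE 0.17, adjusted p = 0.565), and 0.05 without Lep2 GFP-positive replicate 2.

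Over whole windows, the ratio of mean summed H3K27ac in GFP-positive to GFP-negative nuclei was 1.33 at Crh, 1.20 at Sst, 1.05 at Trh, 1.02 at Hcrt and 0.964 at Oxt-Avp. For ATAC it was 1.49 at Trh, 1.24 at Crh (4 of 8 comparisons at the same treatment and number higher), 1.22 at Oxt-Avp, 1.20 at Hcrt and 0.967 at Sst. The highest ratios were those of Crh and Sst for acetylation and of Trh for openness. These sums are descriptions without a test.

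**Figure D4:**
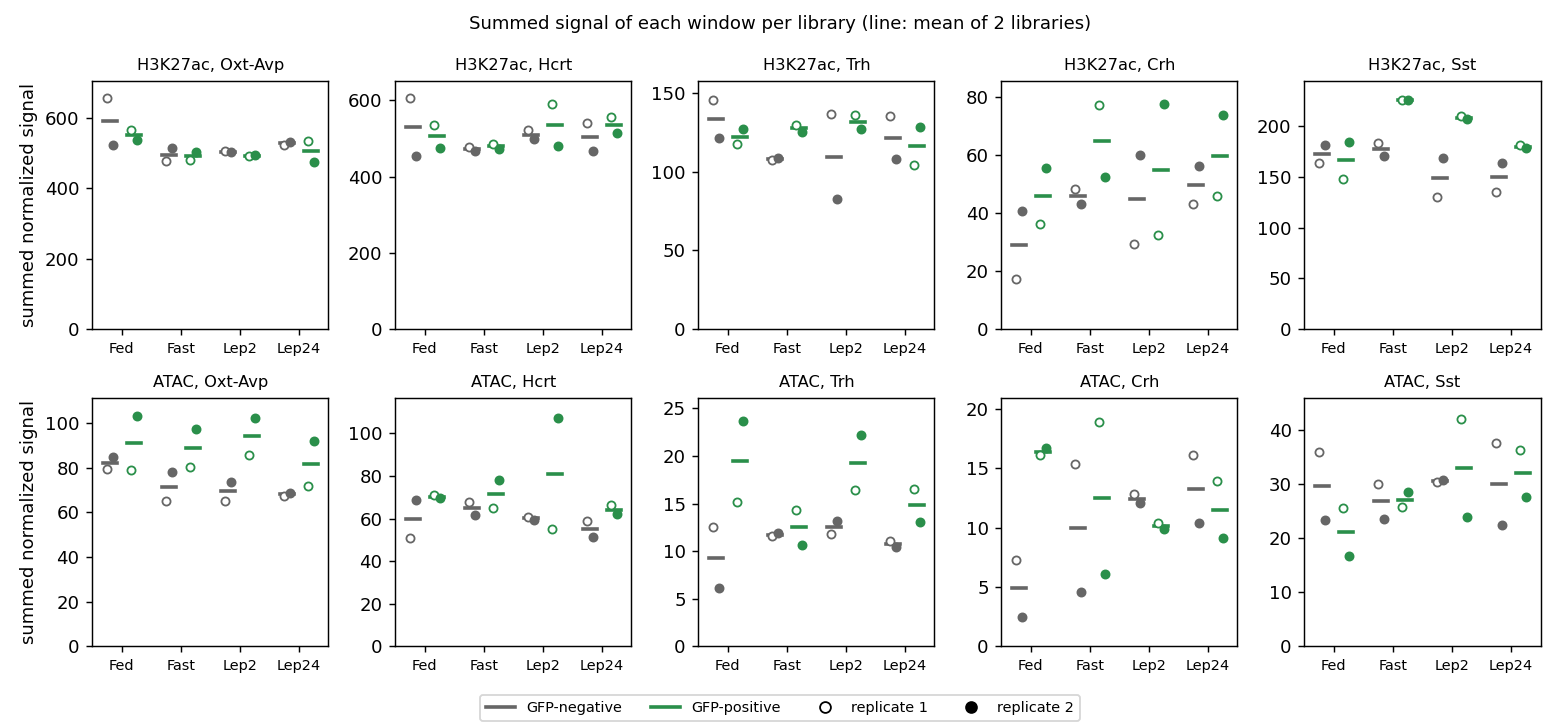
Summed normalized signal of each window (y axis, from 0) in every library by treatment (x axis) and sort, H3K27ac in the top row and ATAC in the bottom row, with open points for replicate 1, filled points for replicate 2 and lines at the mean of 2 libraries. For H3K27ac at Sst both GFP-positive libraries lie above both GFP-negative libraries in Fast, Lep2 and Lep24 but not in Fed. With 2 libraries per group this is a description without a test.

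Fasting and leptin were compared within each sort to ask whether chromatin in the windows follows energy state. No window region passed the test in either assay, and neither did any region of the whole tables (limma, background 0% in all 9 comparisons of each assay, differences between sorts included). For H3K27ac the counts of 21 at an unadjusted p under 0.05 in GFP-positive nuclei were 2 for Fast against Fed (9.52%, all regions 1.91%), 1 for Lep2 against Fast (4.76%, all regions 3.27%) and 1 for Lep24 against Fast (4.76%, all regions 2.65%). In GFP-negative nuclei they were 2, 0 and 2, with 5.98, 4.63 and 6.05% of all regions, and for the difference between sorts 1, 0 and 0, with 2.36, 2.36 and 2.17%. For ATAC they were 0 of 8 throughout, while the shares of all regions were 6.56, 7.85 and 6.70% in GFP-positive nuclei, 1.49 to 1.97% in GFP-negative nuclei, and 3.95, 3.98 and 2.97% for the difference. The 95% confidence interval of a treatment difference reached a median of 0.77 (H3K27ac) and 0.74 (ATAC) log2 units to each side of the estimate. These intervals are not adjusted for the number of regions tested, so they are no detection limit. With 2 libraries per group, larger estimates also went uncalled, such as a log2 of 2.23 for Lep2 against Fast at a Trh H3K27ac region in GFP-positive nuclei. The comparisons with Fast share its libraries.

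Among the H3K27ac regions, a short Trh region and a Sst region had the smallest treatment p-values, and neither passed adjustment. The 447 bp region chr6:92202616-92203062 had 5.4 and 5.1 in Fed, 3.5 and 0 in Fast, 6.3 and 12.6 in Lep2 and 4.5 and 4.8 in Lep24 GFP-positive libraries. In GFP-negative libraries it had 12.5 and 11.6, 4.1 and 3.3, 10.4 and 3.5, and 12.8 and 11.0 in the same order. Fast had the lowest mean in both sorts, with 1 library listed at 0. Lep2 differed from Fast in GFP-positive nuclei by a log2 of 2.23 (SE 0.65, limma adjusted p = 0.923), with 1.15 to 3.32 when 1 library was left out, the lower without Fast GFP-positive replicate 2. Lep24 differed from Fast by 1.41 (SE 0.65, adjusted p = 0.942), with 0.33 to 2.50 when 1 library was left out. This region also had the smallest p for the difference of Lep2 against Fast between sorts (log2 1.62, SE 0.92, adjusted p = 1.00), with 0.53 to 2.70 when 1 library was left out. Neither Fast library belongs to the high-mitochondrial set, and the set's part in this difference was not tested.

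The Sst region chr16:23887504-23888980 had 8.1 and 9.8 in Fed, 16.9 and 23.6 in Fast, 19.4 and 23.3 in Lep2 and 21.1 and 10.2 in Lep24 GFP-positive libraries. In GFP-negative libraries the values were 26.4 and 21.4 in Fed, 15.4 and 17.1 in Fast, 16.1 and 19.9 in Lep2 and 10.6 and 9.4 in Lep24. Fast therefore lay above Fed in GFP-positive nuclei (log2 1.08, SE 0.35, adjusted p = 0.985) and below it in GFP-negative nuclei. The difference of these changes between sorts was 1.61 on the log2 scale (SE 0.50), and its adjusted p was 1.00. In GFP-negative nuclei the smallest p for fasting was at chr6:92198007-92198731 near Trh, with 11.6 and 8.8 in Fed and 6.6 and 0 in Fast (log2 −2.01, SE 0.79, adjusted p = 0.716). Without Fast GFP-negative replicate 1 this was −3.47, and without Fast GFP-negative replicate 2 it was −0.55. The same region had the smallest p for Lep2 there, with 12.6 and 4.7 (log2 1.68, adjusted p = 0.722), and ranged from 0.21 to 3.14 without one or the other of these Fast libraries. Its difference of Lep24 against Fast between sorts also had the smallest p (log2 −2.25, SE 1.11, adjusted p = 1.00), with −3.72 to −0.79 without these libraries. For repeated leptin it was the Crh region chr3:19592855-19593802, with 9.5 and 9.4 in Lep24 against 5.8 and 3.3 in Fast (log2 0.95, SE 0.41, adjusted p = 0.714), and 0.62 without Fast GFP-negative replicate 2.

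No treatment difference in open chromatin was called either. In GFP-positive nuclei the Trh region chr6:92184842-92185553 had 15.2 and 23.7 in Fed, 14.3 and 10.7 in Fast and 16.4 and 22.2 in Lep2. Its log2 changes were −0.58 for Fast against Fed (SE 0.38, limma adjusted p = 0.858) and 0.59 for Lep2 against Fast (SE 0.38, adjusted p = 0.758), the smallest p of the windows in both comparisons. When 1 library was left out they ran from −0.88 to −0.28 and from 0.38 to 0.79. In GFP-negative nuclei the smallest p for fasting was at the Crh region chr3:19593848-19594433, with 7.3 and 2.5 in Fed and 15.4 and 4.6 in Fast (log2 0.83, SE 0.53, adjusted p = 1.00). That value ranged from 0.06 to 1.61 without one or the other Fast GFP-negative library. For Lep2 against Fast it was at chr2:130409746-130410397 in the Oxt-Avp window (log2 −0.40, SE 0.39, adjusted p = 1.00, and −0.81 to 0.01 when 1 library was left out). Between sorts, the change from Fast to Lep2 differed most by p at the Trh region (log2 0.51, SE 0.54) and that from Fast to Lep24 at the Crh region (log2 −0.50, SE 0.75, with −1.27 to 0.28 when 1 library was left out), both with an adjusted p of 1.00. Lep24 against Fast had its smallest p at the Hcrt region chr11:100622940-100623973 in both sorts, with a log2 of −0.31 (SE 0.34, adjusted p = 0.928) in the GFP-positive and −0.44 (SE 0.34, adjusted p = 1.00) in the GFP-negative nuclei. These ran from −0.51 to −0.11 and from −0.74 to −0.15 when 1 library was left out.

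Within single treatments no window region was called between the sorts. The smallest adjusted p was 0.151 for H3K27ac, in Fast, and 0.170 for ATAC, in Lep2. In Fed, 0% of all H3K27ac and 0.016% of all ATAC regions were called, and in Lep24 0% of both. In Fast, 0.103% of all H3K27ac regions and 0.0548% of all ATAC regions were called, and in Lep2 0% and 0.199%. In the authors' deposited tables, 0 of the 24 H3K27ac and 0 of the 8 ATAC regions had an FDR under 0.05 in any of the 14 comparisons listed for each assay. Not every region had an FDR there. Of the 24 H3K27ac regions, 15 had an FDR in the comparison between sorts, and 12, 9 and 13 had one within Lep24, Lep2 and Fast. Of the 8 ATAC regions, 7 had an FDR in the comparison between sorts and 6 within Lep2. None of the listed comparisons names Fed.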

How the data were processed

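Sorted nuclei were assayed by ATAC-seq and by ChIP-seq for H3K27ac, with 16 libraries for each. Per the file headers, the authors deposited normalized signal for every region and library, under columns headed as normalized counts, with log2 fold changes, p-values and FDR of their own comparisons, which are quoted only as theirs. The method behind the normalization is not stated in the labels or headers. Values carried 1 decimal, and whole reads were not recovered, so no count model was used and absolute depth was unknown. The 32 variance-stabilized columns were not used. Build mm9 and the tools DESeq2 1.16.1, HTSeq 0.6.0, MACS2, Bowtie2 2.2.6, Bowtie 1.2, STAR 2.5.2b and CASAVA 1.8 are named, per the submitters' processing notes, with no step tied to a tool. Not analysed here were 23 RNA, 16 ChIP input and 4 ATAC input samples.

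Libraries were grouped by the treatment and sort in their titles. Regions with mean signal in the lowest 10% (up to 5.96 for H3K27ac and 5.44 for ATAC) were left out. Values were taken to log2(signal + 1), a scale that understates changes of low regions, and fitted with limma 3.58.1 (R 4.3.3, trend prior) as 8 group means that share 1 estimate of the spread. Tests are two-sided, and p-values were adjusted by Benjamini-Hochberg over all regions tested in each of 14 comparisons per assay. The fit was also run on simulated data with known changes and independent noise in each library. That simulation held no effect shared by libraries, such as one of the high-mitochondrial set, so it does not show how the fit handles one. Plots used matplotlib 3.10.9. Coordinates are mm9 and count from 1.

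The text names, per window and assay, the region densest in signal, every called region and the region with the smallest p between sorts, plus the smallest p of the windows in each treatment comparison. Of the H3K27ac regions next to a named ATAC region, chr2:130404501-130410394 and chr6:92183451-92188702 were added after their values were seen. Members, windows and lists were chosen with earlier results of these data known. Lists of receptors, processing enzymes and regulators of these peptides were not run, since regions were not matched to genes. Alternatives were quantile normalization, other pseudocounts and threshold, no filter, library weights, replicate blocks, fewer groups, single replicates, the high-mitochondrial set (summed mitochondrial signal above 5000) as a term or split off, and each library left out.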

Additional observations from a re-analysis of the deposited data

Results flagged for a closer look

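Among 58 sets of 8 libraries of a sort, 4 had a library far from the others by Dixon's test, a rule that chance meets in about 1 set in 20. In the Oxt-Avp window, summed H3K27ac was 655.5 in Fed GFP-negative replicate 1, which belongs to the high-mitochondrial set, and 531.7 in the next library of that sort. In the Hcrt window, summed ATAC signal was 107 in Lep2 GFP-positive replicate 2 and 78.1 in the next. In the Trh window, ATAC signal was 6.1 in Fed GFP-negative replicate 2 and 10.4 in the next, and this appears both as the window sum and as the single region it consists of. Without the library concerned, these differences between sorts kept their direction. The log2 ratio of the Oxt-Avp sums went from −0.0534 to −0.0033, and that of the Hcrt ATAC sums from 0.26 to 0.15. The log2 difference of the Trh ATAC region went from 0.52 to 0.41 (limma adjusted p = 0.207), and that of the Hcrt ATAC region chr11:100619873-100621450 from 0.39 to 0.30 (adjusted p = 0.216).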

How the results depend on the processing

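For H3K27ac between sorts, the count of 0 called of 21 became 1 with quantile normalization (9.29% of all regions called), 1 with replicate 2 alone (24.2%), 2 with the high-mitochondrial set as a term (26.6%) and 4 in the libraries outside the set (32.4%). Leaving out 1 library gave 0 to 1, with the Crh region chr3:19592855-19593802 called without Lep2 GFP-positive replicate 1 (adjusted p = 0.0270, 12.2% of all called) and the Sst region chr16:23888981-23891444 without Fed GFP-negative replicate 2 (adjusted p = 0.0498, 9.02%). In Fast alone the count of 0 became 1 with library weights (14.2% of all), 3 with only the groups compared (20.7%) and 3 outside the set (19.9%). In Lep24 alone it became 1 outside the set (10.8%), where 1 library of each sort is left and is assumed to vary like the other groups. For ATAC between sorts the count of 1 became 0 with replicate 2 alone (2.81% of all) and was 1 to 2 when 1 library was left out (2 without Lep2 GFP-positive replicate 1, Fast GFP-positive replicate 1 or Fed GFP-negative replicate 1, with 10.2, 13 and 7.7% of all). The treatment counts stayed at 0 in every alternative run. The ratio of summed H3K27ac at Trh turned to a log2 of −0.22 inside the set.

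Replicate numbers did not pair the samples by the labels. Deviations of same-numbered libraries of the sorts within a treatment correlated by 0.0097 to 0.495 in H3K27ac and 0.0375 to 0.141 in ATAC. Same-numbered H3K27ac libraries of different treatments reached similar values, such as 0.550 between Lep24 and Lep2 in GFP-positive nuclei. Those with a Fast library ran from −0.164 to 0.0244. These correlations therefore do not show pairing within a treatment, and the part of the high-mitochondrial set in them was not tested. With the replicate block 1 H3K27ac region was called between sorts (the Crh region above, adjusted p = 0.0438, with 16.2% of all called). With pairs of libraries as the block 2 were called (25.1% of all), the Crh region and chr16:23896840-23900382 at Sst (adjusted p = 0.0249). For ATAC 1 was called in both.

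Of the named estimates, 6 changed sign in some alternatives, none of them called. The H3K27ac region chr2:130387094-130394260 had 0.0032 with replicate 2 alone, 0.0479 outside the set and −0.16 to 0.11 when 1 library was left out. The Hcrt region chr11:100628174-100632873 had 0.1264 inside the set. The Trh region chr6:92193736-92195870 had −0.18 with replicate 1 alone, −0.32 inside the set and −0.0569 to 0.1099 when 1 library was left out. The ATAC region at Sst ranged from −0.1671 to 0.0299, Lep2 against Fast in GFP-negative nuclei at chr2:130409746-130410397 from −0.8119 to 0.0095, and the difference of Lep24 against Fast between sorts at the Crh ATAC region from −1.27 to 0.28. The cause of these changes was not tested. Comparisons of sorts within 1 treatment could not be fitted inside the set, where every group has 1 library and no spread can be estimated.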
